A study of Mus musculus with 28 samples.

Results

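Lung and caudal positional factors were followed across peripheral neural stem cells (pNSCs), the tissues that gave them and control brain neural stem cells (NSCs). The 10 genes are *Tbx4*, *Tbx5*, *Foxf1*, *Nkx2-1*, *Pitx1*, *Tbx15*, *Tbx18*, *Cdx1*, *Cdx2* and *Cdx4*, taken by name from the 28244 genes of the count table. All 10 were found in it, and their counts in all 28 samples are described here. The question was whether cultured pNSCs still carried transcripts of the non-Hox factors that mark a lung, limb, body wall or tail origin.

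These factors assign position in the embryo. *Nkx2-1* marks the respiratory part of the foregut endoderm and also the ventral forebrain, and *Foxf1* is a forkhead factor of the mesenchyme around foregut and lung that acts downstream of Hedgehog signals. *Tbx4* and *Tbx5* are T-box factors of the lung bud mesenchyme and of the hind limb and forelimb, and *Pitx1* acts above *Tbx4* in the hind limb. *Tbx15* and *Tbx18* form another pair of T-box factors, active in body wall, limb and skin mesenchyme and, for *Tbx18*, in somites, epicardium and mural cells. The *Cdx* genes are ParaHox factors of the posterior embryo that regulate *Hox* genes, and *Cdx1* and *Cdx2* also act in the intestine.

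PolyA-selected RNA was measured in 11 groups of mouse cells, whose strain the labels give as C57BL/6 throughout, whereas the methods describe wild-type CD1 or CD1/C3H mixtures and transgenic mice bred with them. In an experiment whose labels name no reporter line, lung pNSCs, tail pNSCs, brain NSCs, lung cells and tail cells were measured with 2 samples each. Group names and numbers match those of the study's Nes-GFP experiment, in which GFP is driven by Nestin regulatory elements and GFP+ cells were sorted from adult lung and postnatal tail. Wnt1Cre-mTmG tail pNSCs, Wnt1Cre-mTmG DRG pNSCs, Wnt1Cre-mTmG brain NSCs and DRG NCSCs (neural crest stem cells from dorsal root ganglia) had 3 samples each. The study gives adult wild-type mice as the source of the NCSCs that it stained. Wnt1-Cre switches the mTmG reporter from Tomato to GFP in neural crest cells and their progeny, and the pNSCs kept were Tomato+ and GFP-. Sox2-GFP lung pNSCs, from GFP+ cells of postnatal lung with a knock-in reporter, and Sox2-GFP brain NSCs had 3 samples each and were compared with the same 2 samples of lung cells. By the protocols, adult donors were about 4 to 6 weeks old and postnatal donors about 1 to 5 days old, and the labels give no age for a sample. All pNSCs grew for 3 weeks in medium with EGF and bFGF at 10 ng/mL each, after which clusters, usually clonal, were picked by hand, so that a line stands for few founder cells.

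The library totals ran from 9808246 to 22637031 counts, and the Wnt1Cre-mTmG brain NSCs and Wnt1Cre-mTmG DRG pNSCs were the shallowest groups at 9808246 to 11431445. A gene was called where the adjusted p was under 0.05 (edgeR's quasi-likelihood test, two-sided, Benjamini-Hochberg over all genes tested) and the level differed by at least 1 on the log2 scale, and folds carry the SE of the fit. A count of 3 in a library was taken as the smallest detectable amount and stood for 0.133 to 0.306 cpm of the raw library total (cpm are counts scaled to a common library size). The levels below are cpm of library totals adjusted by TMM factors of 0.902 to 1.05, on 1 scale over all 28 samples, and are not corrected for gene length, so they are compared between samples and not between genes. Of the DRG NCSCs, the third sample stood apart from the other two by counts (chi-square per gene of 17.8 and 22.3, against at most 2.90 in any other pair of replicates). The study calls the replicates biological, and the labels tie no sample to an animal.

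Positions of 9 genes are given on GRCm38 (GENCODE M21), the build to which the reads were aligned. *Tbx4* lies at chr11:85886422-85916097 on the plus strand, *Tbx5* at chr5:119832668-119885219 (plus), *Foxf1* at chr8:121084386-121088144 (plus) and *Nkx2-1* at chr12:56531958-56536908 (minus). *Pitx1* lies at chr13:55825051-55836192 (minus), *Tbx15* at chr3:99240381-99354259 (plus) and *Tbx18* at chr9:87702800-87731260 (minus). *Cdx2* lies at chr5:147300805-147307270 (minus) and *Cdx4* at chrX:103321398-103330592 (plus). A gene overlaps *Foxf1* (Gm20388, Gm27530), *Nkx2-1* (Gm26973), *Pitx1* (Gm47071, Gm28760), *Tbx15* (Gm43120) and *Tbx18* (D030062O11Rik). Whether counting used strand is not given in the sources used here, so reads in these overlaps could not be told apart.

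The 250 bases before the start are shown for *Tbx4* and *Nkx2-1*, which were abundant in lung cells and near absent from all pNSCs, and for *Tbx18*, which was counted in every library. They come from RefSeq on GRCm38.p6, whose table held 5 of the 10 genes. *Tbx4* is at chr11:85896515-85896764 (plus), at a start inside the GENCODE gene, *Nkx2-1* at chr12:56536909-56537158 (minus) and *Tbx18* at chr9:87731261-87731510 (minus). Capitals mark the motifs searched on both strands, which were a T-box half-site (TCACAC), a GC box (GGGCGG), then the TATA box (TATAAA), and lastly the CCAAT box.
Tbx4: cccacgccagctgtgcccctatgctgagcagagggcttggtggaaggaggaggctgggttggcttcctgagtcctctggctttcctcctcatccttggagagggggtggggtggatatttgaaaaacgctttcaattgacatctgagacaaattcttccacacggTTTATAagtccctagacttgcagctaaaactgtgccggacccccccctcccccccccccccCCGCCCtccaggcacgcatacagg
Nkx2-1: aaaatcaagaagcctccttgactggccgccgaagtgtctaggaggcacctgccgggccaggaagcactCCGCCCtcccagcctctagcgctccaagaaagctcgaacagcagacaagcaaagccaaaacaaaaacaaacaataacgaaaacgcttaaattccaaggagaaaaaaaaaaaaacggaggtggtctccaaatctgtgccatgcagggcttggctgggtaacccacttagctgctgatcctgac
Tbx18: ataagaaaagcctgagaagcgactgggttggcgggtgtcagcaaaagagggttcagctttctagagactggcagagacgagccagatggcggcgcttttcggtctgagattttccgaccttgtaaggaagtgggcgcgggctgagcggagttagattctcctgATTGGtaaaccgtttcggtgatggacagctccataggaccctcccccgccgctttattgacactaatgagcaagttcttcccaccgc
The *Tbx4* window held 1 GC box and 1 TATA box, that of *Nkx2-1* 1 GC box, and that of *Tbx18* 1 CCAAT box, each in reverse complement. Of 32851 promoters of the same length, 12.3% held the T-box half-site, 32.7% the GC box, 12.4% the TATA box and 33.8% the CCAAT box, and no T-box half-site was in these windows. The ratio of observed to expected CpG was 0.285 for *Tbx4*, 0.564 for *Nkx2-1* and 0.836 for *Tbx18*, where the median of all promoters was 0.374. The 3 windows thus ran from CpG-poor to CpG-rich.

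The 10 genes fell into 3 kinds by how widely they were counted. *Tbx18* was above 3 counts in 28 of 28 libraries and *Tbx15* in 27. *Foxf1* passed 3 counts in 8 libraries, *Nkx2-1* in 5, *Tbx4* in 4 and *Tbx5* in 2. *Pitx1* passed it in 1 library with 4 counts, and *Cdx1*, *Cdx2* and *Cdx4* in none. These last 4 genes fell below the expression filter and were tested in no comparison.

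**Figure D1:**
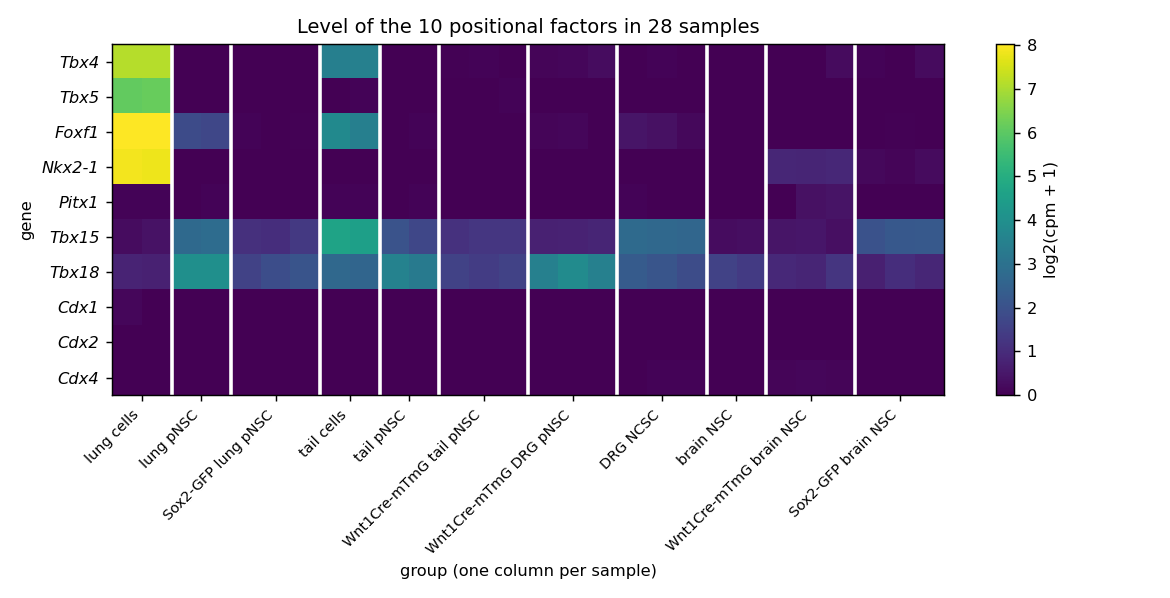
Level of each of the 10 genes (rows) in each of the 28 samples (columns, grouped, with white lines between groups), as log2 of cpm with 1 added. The lung cells are bright for *Tbx4*, *Tbx5*, *Foxf1* and *Nkx2-1*, *Tbx15* and *Tbx18* are spread over nearly all groups, and the *Cdx* rows are dark throughout.

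Lung cells set the reference for the lung factors. *Foxf1* had 4837 and 4188 counts in the 2 lung cell samples (259 ± 1.69 cpm, SD, n = 2), *Nkx2-1* 4423 and 3651 (231 ± 9.32 cpm), *Tbx4* 2610 and 2281 (140 ± 0.00929 cpm) and *Tbx5* 1264 and 1146 (69.3 ± 1.80 cpm). All 4 were far above any other group. *Tbx15* and *Tbx18*, in contrast, were near the bottom of their range in lung cells, with 4 and 5 counts for *Tbx15* and 14 and 11 for *Tbx18*. Defining markers of lung were present: the surfactant gene *Sftpc* had 170787 to 197366 counts, all 10 lung epithelium markers were detected, and leukocyte markers summed to 4308 to 4315 cpm and fibroblast markers to 5019 to 5133 cpm.

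Tail cells carried another set. *Tbx15* had 435 and 343 counts (23.2 ± 1.75 cpm), the highest of all 11 groups, and *Tbx18* 99 and 80 counts (5.33 ± 0.310 cpm). *Tbx4*, which patterns the hind limb, had 179 and 162 counts (10.2 ± 0.225 cpm) and *Foxf1* 230 and 158 (11.5 ± 1.98 cpm), while *Tbx5* had 0 and 1 count and *Nkx2-1* none. Against lung cells, *Tbx15* was 90.2-fold higher (log2 fold change 6.49 ± 0.259 SE, adjusted p = 7.97e-137) and *Tbx18* 7.61-fold higher (2.93 ± 0.286, adjusted p = 3.35e-24). *Foxf1* was 21.7-fold lower (SE 0.0692 on the log2 scale), *Tbx4* 13.4-fold lower (SE 0.0832) and *Nkx2-1* at least 1285-fold lower, and the count of *Tbx5* was 2316-fold lower (95% counting interval 415 to 91529). All 6 genes tested were called, where 43.4% of all 16948 genes were. *Tbx5* and *Nkx2-1* passed the expression filter through lung cells alone, so nothing is read from that count. Tail cells held markers of fibroblasts (10 of 10 detected, 74075 to 75730 cpm in sum), keratinocytes (5509 to 5630.5 cpm) and skeletal muscle (249.8 to 250.5 cpm), and the part of these cells in each level was not tested. In bulk samples, fewer cells of a type and less RNA per cell cannot be told apart.

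Of the 4 lung factors, *Foxf1* was the one counted in lung pNSCs. It had 54 and 41 counts there (2.42 ± 0.179 cpm, n = 2) and 0 and 0 in the brain NSCs of the same experiment. Its level exceeded that of brain NSCs at least 16.4-fold (adjusted p = 9.03e-28, edgeR). *Tbx4*, *Tbx5* and *Nkx2-1* had no count in either lung pNSC library, although these held 21402778 and 18009594 counts in all. With lung cells as the reference, *Foxf1* stood at 0.910% of their level, 110-fold lower (95% interval 97.6 to 124). *Tbx4* was at least 908-fold lower, *Tbx5* at least 448-fold lower and *Nkx2-1* at least 1496-fold lower. All 6 genes tested were called between lung pNSCs and lung cells, where 55.0% of all genes were, but *Tbx5* and *Nkx2-1* were tested only because lung cells carried them past the filter, and nothing is read from the count. For the 4 lung factors the adjusted p of these comparisons was too small to be represented.

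Markers of lung cell types were low in the same libraries. The 10 lung epithelium markers summed to 0.112 to 0.236 cpm in the lung pNSC libraries with *Sftpc* at 0 in both, and the fibroblast list summed to 7.89 to 9.86 cpm, against 8.22 to 10.1 cpm in brain NSCs. Most of that sum was *Pdgfra* (102 to 176 counts), a receptor that glial progenitors also carry. Of the 10 fibroblast markers 2 were higher than in brain NSCs and none lower (median log2 0.54, all genes 0), *Col1a1* at 1.25 against 0.368 cpm and *Postn* at 0.155 cpm against 0. The endothelial receptor gene *Tek* (1.65 against 0.637 cpm) and the myeloid gene *Lyz2* (0.159 cpm against 0) were higher too. *Postn* and *Lyz2* lay at about the smallest detectable amount, which was 0.155 cpm on average in these libraries, so little rests on them. The smooth muscle list ran the other way, at 1.74 to 3.21 cpm in sum against 34.8 to 36.0 cpm in brain NSCs. Of its 5 markers 1 was lower and none higher (median log2 -1.09). The part of such cells in *Foxf1* was not tested. All 7 neural stem cell markers were detected, at 4534 to 4636 cpm in sum. *Tcf21*, *Fgf10* and *Sox17*, which act in lung mesenchyme, bud growth and endoderm or endothelium, stood at 104, 26.4 and 117 cpm in lung cells and had no count in lung pNSCs.

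**Figure D2:**
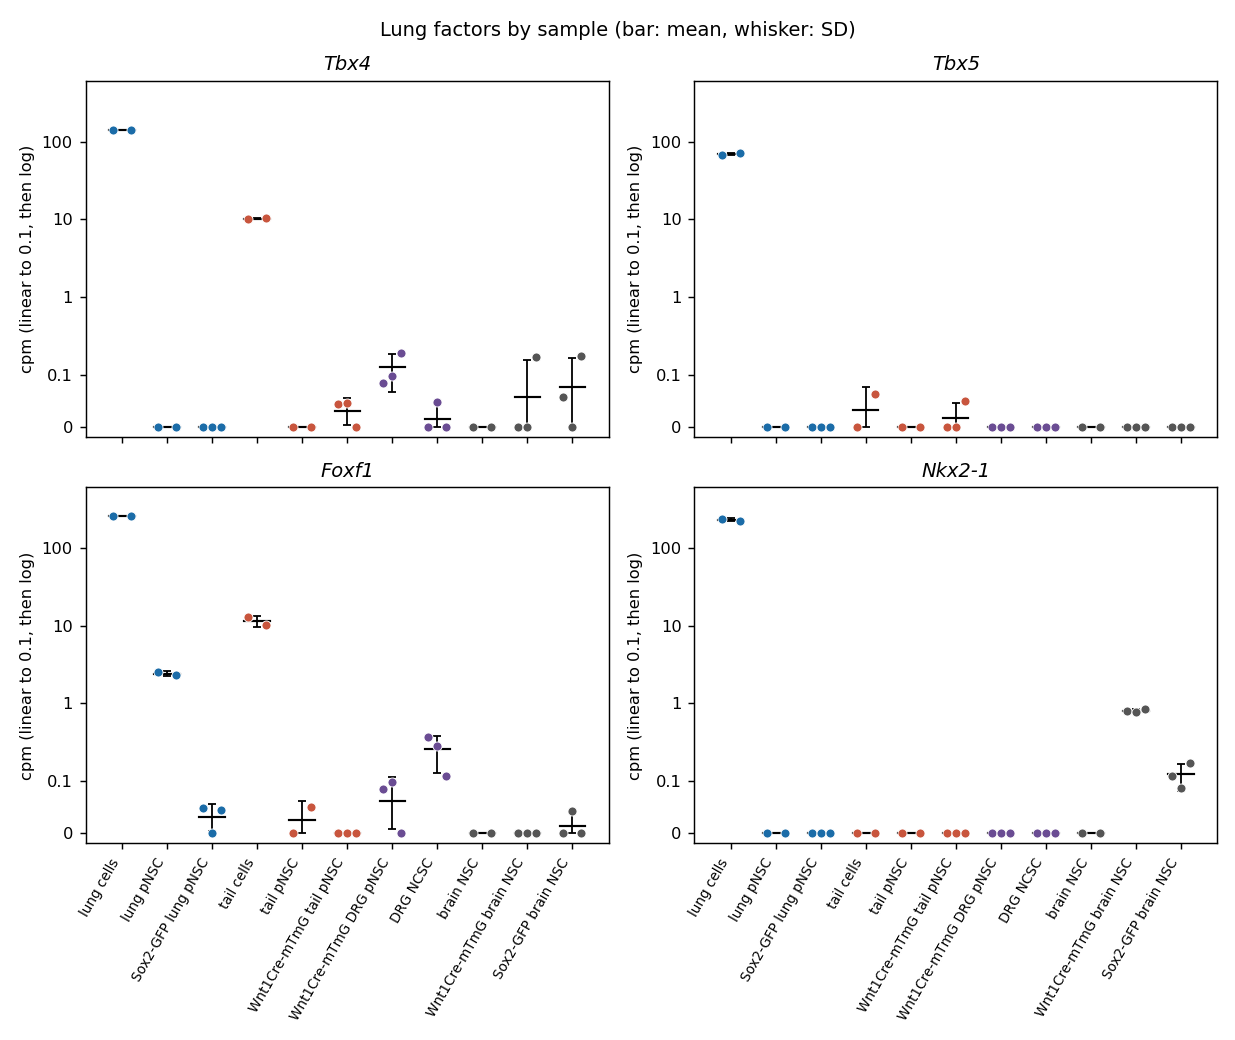
Level of the 4 lung factors in every sample as cpm (axis linear up to 0.1 and logarithmic above), 1 dot per sample, with the group's mean as a bar and its SD as a whisker. In lung pNSCs *Foxf1* sits at 2.42 cpm between the lung cells at 259 cpm and the other pNSC groups near 0, while *Tbx4*, *Tbx5* and *Nkx2-1* are at 0 there.

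The neighbourhood of *Foxf1* showed a like pattern in part. *Fendrr*, a long noncoding RNA that starts 1276 bases away on the opposite strand, had 5044 to 6020 counts in lung cells, 19 to 25 in lung pNSCs and 0 in brain NSCs. *Foxc2*, another forkhead gene 28027 bases away, had 35 to 46 counts in lung cells, 21 to 22 in lung pNSCs and 2 to 7 in brain NSCs. *Foxl1*, 39796 bases away, had 44 to 48 counts in lung cells and at most 1 in lung pNSCs. Lung pNSCs thus held counts of 2 of the 3 forkhead genes here and of the noncoding RNA, and the balance of *Foxc2* to *Foxf1* was unlike that of lung cells. *Mthfsd*, 3484 bases from *Foxf1*, was counted in all groups, at 263 to 771 counts a library. Beside *Nkx2-1*, the pseudogene *Sfta3-ps* had 4423 to 5073 counts in lung cells and 0 in lung pNSCs, as *Nkx2-1* itself did. Beside *Tbx4*, the T-box gene *Tbx2* had 7578 to 9062 counts in lung cells and 163 to 181 in lung pNSCs, where *Tbx4* had none.

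**Figure D3:**
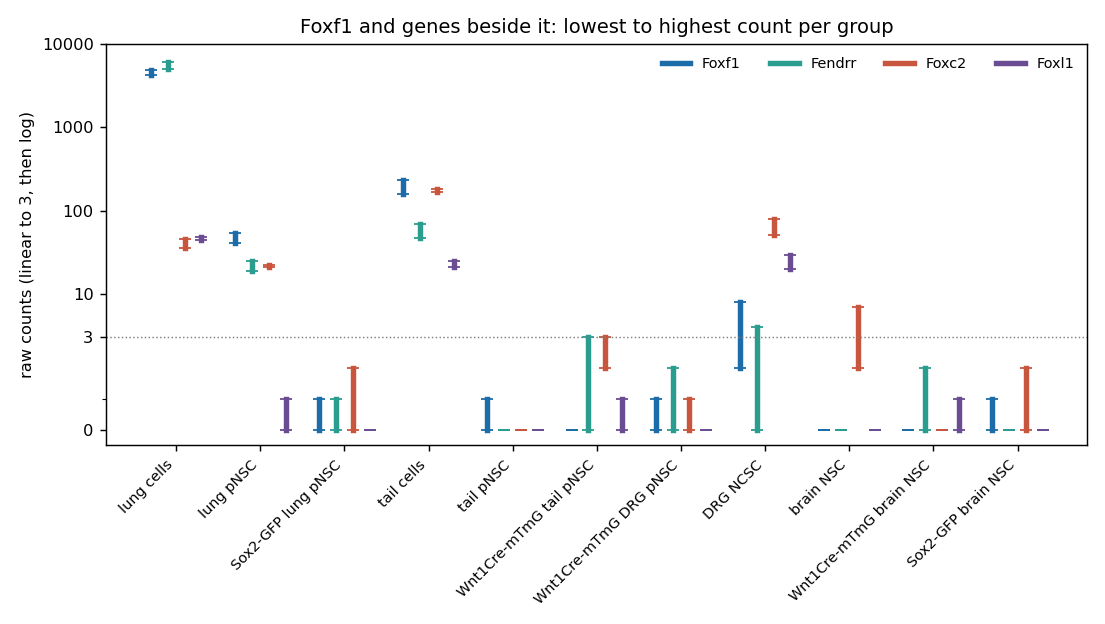
Raw counts of *Foxf1* and of 3 genes within 100 kb of it, drawn from the lowest to the highest sample of each group (axis linear up to 3 counts and logarithmic above, with a dotted line at the smallest detectable amount of 3). *Foxf1*, *Fendrr* and *Foxc2* lie above 3 in the lung pNSCs, and *Foxf1* and *Fendrr* lie at or below 1 in the Sox2-GFP lung pNSCs.

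Sox2-GFP lung pNSCs did not show *Foxf1*. Their 3 libraries had 1, 0 and 1 count, and the Sox2-GFP brain NSCs 0, 1 and 0. Against the same lung cells, the *Foxf1* count was 8488-fold lower (95% counting interval 2349 to 70097). *Tbx4* was at least 1021-fold, *Tbx5* at least 504-fold and *Nkx2-1* at least 1682-fold lower, each with no count in the 3 libraries. The 6 genes tested were all called against lung cells, where 56.3% of all genes were, but *Tbx4*, *Tbx5*, *Foxf1* and *Nkx2-1* passed the filter of this experiment through lung cells alone. Against Sox2-GFP brain NSCs 4 of the 6 genes tested passed both thresholds, where 15.7% of all 16234 genes did, but those of *Tbx4* and *Nkx2-1* rest on libraries of at most 3 counts and no fold is given for them.

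The difference in *Foxf1* between the lung pNSCs was also tested as an interaction, that is, as the change from brain NSCs in the unnamed line minus that in the Sox2-GFP line. It was 7.80 on the log2 scale (SE 2.85, adjusted p = 0.0241), a value fitted against brain NSCs with at most 1 count. The call was lost without the second Sox2-GFP brain NSC sample, the one with a count in that group (log2 difference 6.02, adjusted p = 1.00). By counts alone, the 54 and 41 of one set of lung pNSCs did not overlap the 0 to 1 of the other, whose libraries held 20411624 to 22068290 counts in all. Line, donor age, reporter sort and experiment differ together between these sets and cannot be told apart.

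Outside lung cells, *Nkx2-1* passed 3 counts only in the Wnt1Cre-mTmG brain NSCs. The Wnt1Cre-mTmG brain NSCs had 9, 8 and 10 counts (0.808 ± 0.0374 cpm, n = 3), the Sox2-GFP brain NSCs 2, 2 and 3, and the brain NSCs of the unnamed line 0 and 0. No pNSC library of any tissue held a count. Against Wnt1Cre-mTmG brain NSCs, *Nkx2-1* was lower by a factor of at least 5.73 in tail pNSCs, 2.89 in DRG pNSCs and 5.30 in DRG NCSCs. The counts of *Nkx2-1* in brain NSCs did not overlap between the 3 lines, but those of the Sox2-GFP and unnamed lines did not pass the smallest detectable amount. In the unnamed line brain NSCs and pNSCs were alike without a count. *Foxf1* had a trace elsewhere, at 8, 6 and 2 counts in DRG NCSCs (0.258 ± 0.129 cpm, n = 3), above the 1, 1 and 0 counts of DRG pNSCs and the 0 counts of Wnt1Cre-mTmG tail pNSCs and brain NSCs, and it was below the filter there.

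*Tbx15* was counted in every pNSC library, below its level in tail cells. The lung pNSCs had 122 and 111 counts (5.99 ± 0.323 cpm), the tail pNSCs 54 and 44 (2.68 ± 0.617 cpm) and their brain NSCs 4 and 5 (0.221 ± 0.0292 cpm). Against brain NSCs *Tbx15* was 25.8-fold higher in lung pNSCs (log2 4.69 ± 0.338 SE, adjusted p = 3.33e-42) and 11.5-fold higher in tail pNSCs (3.52 ± 0.413, adjusted p = 1.47e-16). The groups did not overlap. In this line the order of the pNSCs was the reverse of that of their tissues: *Tbx15* was 2.25-fold lower in tail than in lung pNSCs (log2 -1.17 ± 0.202, adjusted p = 2.58e-08), although it was 90.2-fold higher in tail than in lung cells. Without the second tail pNSC sample the difference between pNSCs was -0.94 and fell short of the fold threshold. *Foxf1* also differed between these pNSCs, with 1 count in tail pNSCs against 95 in lung pNSCs, 90.0-fold lower (95% counting interval 15.8 to 3592). If these are the Nes-GFP cells, the lung donors were adult and the tail donors postnatal, so tissue and donor age cannot be told apart. In the other lines *Tbx15* overlapped between Wnt1Cre-mTmG tail pNSCs (1.35 cpm) and Sox2-GFP lung pNSCs (1.23 cpm).

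Each pNSC set therefore differed from its tissue in its own direction. *Tbx15* was 21.8-fold higher in lung pNSCs than in lung cells (log2 4.45 ± 0.345, adjusted p = 1.58e-37) and 9.31-fold lower in tail pNSCs than in tail cells (-3.22 ± 0.163, adjusted p = 4.28e-86). In tail pNSCs 3 of 6 genes tested differed from tail cells, where 46.7% of all genes did. The others were *Tbx4*, at least 62.7-fold lower with no count in tail pNSCs, and *Foxf1*, whose single count was 429-fold lower (95% counting interval 76.5 to 16988).

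In the Wnt1Cre-mTmG pNSCs *Tbx15* had fewer counts. Tail pNSCs had 27, 31 and 28 counts (1.35 ± 0.135 cpm, n = 3), DRG pNSCs 8, 7 and 8 (0.713 ± 0.0501 cpm) and brain NSCs 4, 4 and 3 (0.333 ± 0.0695 cpm). *Tbx15* was 3.99-fold higher in tail pNSCs than in brain NSCs (95% interval 2.64 to 6.03, adjusted p = 1.86e-05). In DRG pNSCs it was 2.13-fold that of brain NSCs (95% interval 1.25 to 3.61), which missed the threshold (adjusted p = 0.0632). The DRG NCSCs had 126, 118 and 90 counts (5.57 ± 0.279 cpm), 16.6-fold above brain NSCs (4.06 ± 0.232, adjusted p = 2.25e-11), 4.18-fold above tail pNSCs (adjusted p = 3.19e-10) and 7.82-fold above DRG pNSCs (adjusted p = 1.93e-10). Some markers of other cells were higher along with *Tbx15* in tail pNSCs and DRG NCSCs, and others were lower. In tail pNSCs 7 of 9 fibroblast markers tested (median log2 4.28, all genes 0.00386) and 3 of 3 smooth muscle markers (median 4.06) were higher than in brain NSCs, with sums of 527 to 540 against 49.9 to 52.2 cpm and of 58.4 to 59.9 against 9.94 to 12.03 cpm. In DRG NCSCs the fibroblast list summed to 7230 to 7337 cpm with 10 of 10 detected, against 33.6 to 37.5 cpm in DRG pNSCs, and the leukocyte list to 630.5 to 663 cpm. All 6 neural crest and Schwann markers were higher in DRG NCSCs than in brain NSCs (median log2 8.95). In tail pNSCs 3 of 5 leukocyte markers were lower than in brain NSCs and 0 higher (median -2.27). In DRG pNSCs 6 of 9 fibroblast markers tested were lower than in brain NSCs and 1 higher (median -1.80). The part of such cells in *Tbx15* was not tested. If the NCSCs came, like those the study stained, from adult wild-type mice, they differed from the DRG pNSCs in age and genotype too. The DRG pNSCs came from postnatal ganglia of the reporter line, so that cell kind, donor age and genotype cannot be told apart.

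The Sox2-GFP cells ran the other way. *Tbx15* had 24, 23 and 34 counts in lung pNSCs (1.23 ± 0.232 cpm) and 53, 84 and 64 in brain NSCs (3.47 ± 0.349 cpm), 2.77-fold lower in the pNSCs (log2 -1.47 ± 0.206, adjusted p = 2.76e-12). These brain NSCs stood above the other brain NSCs and overlapped the tail pNSCs. Their fibroblast list summed to 100 to 106 cpm (of which *Pdgfra* 96.6 cpm), against 8.22 to 10.1 cpm in the brain NSCs of the unnamed line. Their neural crest and Schwann list summed to 68.4 to 73.4 against 9.83 to 9.96 cpm. The sums of Wnt1Cre-mTmG brain NSCs lay between, at 49.9 to 52.2 (*Pdgfra* 22.4 cpm) and 22.5 to 23.6 cpm. These had 8 of 10 fibroblast markers detected, against 5 of 10 in the Sox2-GFP brain NSCs, and *Tbx15* at 0.333 cpm. The part of such cells in *Tbx15* was not tested. The change from brain NSCs differed between the 2 lung lines by 6.17 on the log2 scale (SE 0.333, adjusted p = 3.33e-18). Lung pNSCs of either line were above lung cells, by 4.62-fold in the Sox2-GFP line (adjusted p = 1.23e-06).

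**Figure D4:**
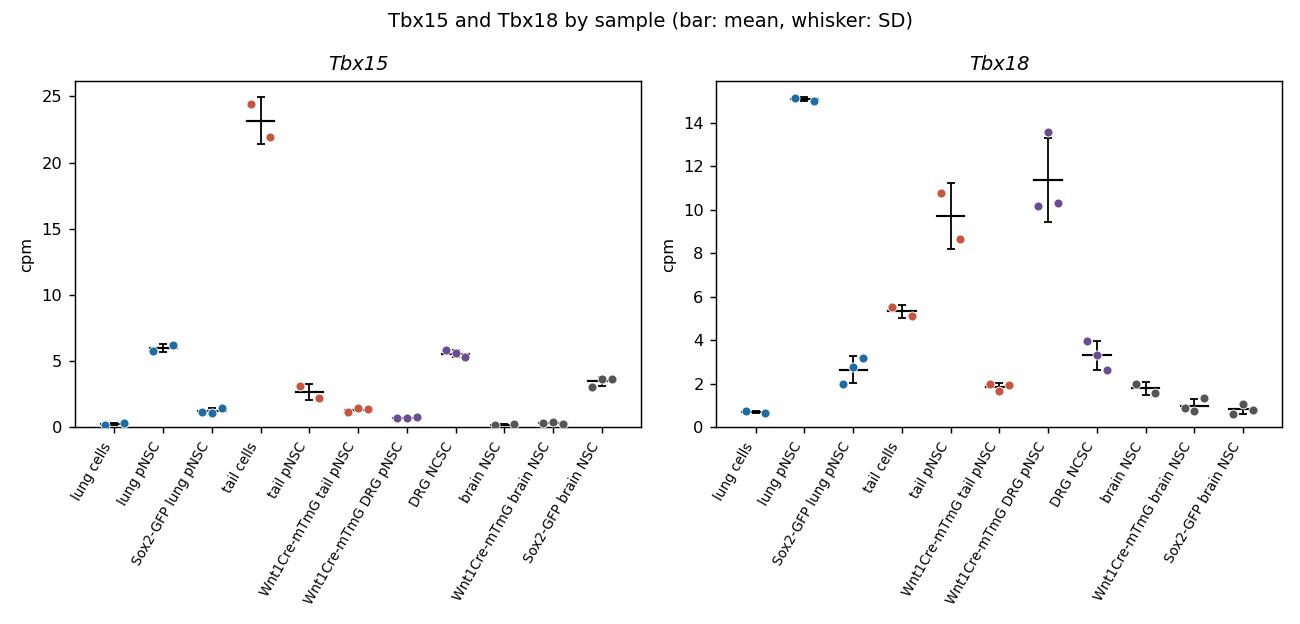
Level of *Tbx15* (left) and *Tbx18* (right) in every sample as cpm on a linear axis from 0, 1 dot per sample, with the group's mean as a bar and its SD as a whisker. *Tbx15* peaks in tail cells at 23.2 cpm and is 3.47 cpm in Sox2-GFP brain NSCs, whereas *Tbx18* peaks in lung pNSCs at 15.1 cpm.

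*Tbx18* was highest of all 11 groups in the lung pNSCs of the unnamed line. The Wnt1Cre-mTmG DRG pNSCs came next (11.4 ± 1.92 cpm) and overlapped the tail pNSCs of the unnamed line. Lung pNSCs had 321 and 268 counts (15.1 ± 0.104 cpm), tail pNSCs 187 and 170 (9.71 ± 1.50 cpm), tail cells 99 and 80 (5.33 ± 0.310 cpm), brain NSCs 40 and 33 (1.80 ± 0.290 cpm) and lung cells 14 and 11 (0.715 ± 0.0537 cpm). None of these 5 groups overlapped its neighbour. *Tbx18* was 8.24-fold higher in lung pNSCs than in brain NSCs (log2 3.04 ± 0.179, adjusted p = 8.49e-63) and 5.28-fold higher in tail pNSCs (2.40 ± 0.195, adjusted p = 1.83e-33). Against the tissues it was 20.1-fold higher in lung pNSCs than in lung cells (4.33 ± 0.228, adjusted p = 5.29e-80), and tail pNSCs exceeded tail cells by 1.69-fold (0.76 ± 0.163, adjusted p = 4.67e-06), under the fold threshold. Between tail and lung pNSCs the log2 difference was -0.64 (adjusted p = 3.54e-06), also under it. The tail pNSCs of the other line and the Sox2-GFP lung pNSCs lay below tail cells. Some markers of mesenchyme and vessels rose with *Tbx15* and *Tbx18* in tail pNSCs over brain NSCs: 3 of 10 fibroblast markers (*Lum*, *Col3a1* and *Col1a1*, the last at 2.02 against 0.368 cpm), 1 of 5 smooth muscle markers (*Myh11*, 1.45 against 0.543 cpm) and 2 of 5 endothelium markers (*Emcn*, 2.12 against 0.173 cpm, and *Kdr*, 4.42 against 1.57 cpm) were called. The sums were 10.4 to 11.6 against 8.22 to 10.1 cpm for fibroblasts and 46.7 to 50.5 against 34.8 to 36.0 cpm for smooth muscle, and the part of such cells in both genes was not tested.

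In the other lines *Tbx18* was above the matching brain NSCs as well. DRG pNSCs had 120, 138 and 107 counts (11.4 ± 1.92 cpm), tail pNSCs 45, 36 and 39 (1.87 ± 0.180 cpm) and Wnt1Cre-mTmG brain NSCs 10, 8 and 16 (1.01 ± 0.307 cpm). DRG pNSCs were above brain NSCs (log2 3.46 ± 0.229, adjusted p = 1.46e-09) and 6.04-fold above the tail pNSCs of the same line (adjusted p = 5.87e-10). The tail pNSCs were 1.83-fold above brain NSCs (0.87 ± 0.295, adjusted p = 0.0159), short of the fold threshold. The DRG NCSCs, at 86, 70 and 45 counts (3.32 ± 0.672 cpm), were 3.29-fold above brain NSCs (adjusted p = 1.33e-05) and 3.35-fold below DRG pNSCs (adjusted p = 1.71e-08). Between DRG pNSCs and DRG NCSCs, *Tbx18* was thus higher and *Tbx15* lower in the pNSCs. Fibroblast markers did not follow *Tbx18* here. In DRG pNSCs 1 of 9 tested was higher than in brain NSCs and 6 were lower (median log2 -1.80). In the tail pNSCs, with less *Tbx18*, 7 of 9 were higher and 0 lower. Of 3 smooth muscle markers tested, 2 were higher in DRG pNSCs and 3 in tail pNSCs. The part of such cells in *Tbx18* was not tested.

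Sox2-GFP lung pNSCs had 42, 60 and 73 counts of *Tbx18* (2.66 ± 0.613 cpm) and their brain NSCs 11, 25 and 14 (0.844 ± 0.228 cpm), a 3.11-fold rise (log2 1.64 ± 0.241, adjusted p = 3.67e-11). The 2 groups did not overlap. Against lung cells the rise was 3.63-fold (adjusted p = 7.25e-10). Of 10 fibroblast markers tested, 1 was higher in these pNSCs than in their brain NSCs and 3 were lower (median log2 -1.16). Of 5 smooth muscle markers 0 were higher and 1 lower. The part of such cells in *Tbx18* was not tested. The change from brain NSCs was larger in the unnamed line than in the Sox2-GFP line by 1.42 on the log2 scale (SE 0.352, adjusted p = 0.000942), and larger in the unnamed line than in the Wnt1Cre-mTmG line for tail pNSCs by 1.54 (SE 0.405, adjusted p = 0.00162). For *Tbx15* the tail difference was 1.52 (SE 0.610), just beyond the threshold (adjusted p = 0.0501). These interactions were called for 1 of 6 genes tested for tail, where 16.0% of all 17393 genes were, and for 3 of 6 for lung, where 14.1% were. *Tbx4*, *Tbx5* and *Nkx2-1* had no count in the pNSCs or brain NSCs of the unnamed line, so nothing is read from these counts.

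**Figure D5:**
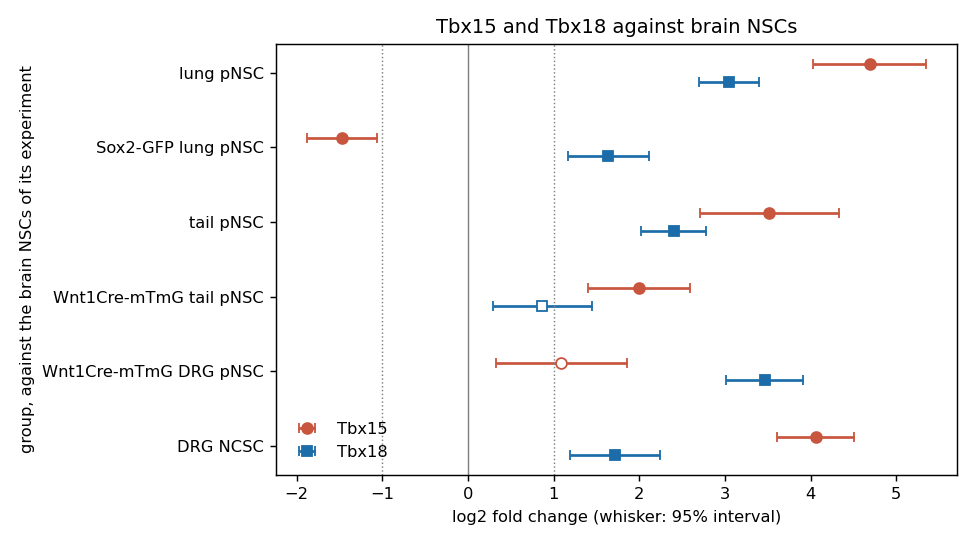
Log2 fold change of *Tbx15* (circles) and *Tbx18* (squares) in each pNSC group and in DRG NCSCs against the brain NSCs of the same experiment, with whiskers for the 95% interval. Filled symbols passed both thresholds, and *Tbx18* is to the right of 0 in all 6 rows, while *Tbx15* is to the left in the Sox2-GFP lung pNSCs at -1.47.

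Counted together, 3 of 6 genes tested were called in lung pNSCs against brain NSCs, all higher, where 8.71% of all genes were called and 4.56% were higher. In tail pNSCs 2 of 6 were called, both higher, where 10.9% were called and 4.31% higher. Tail against lung pNSCs gave 2 of 6, both lower, where 12.9% were called and 7.86% lower. *Tbx4*, *Tbx5* and *Nkx2-1* had no count in these pNSCs and brain NSCs. They were tested only because lung or tail cells carried them past the filter, so nothing is read from these counts. In the Wnt1Cre-mTmG experiment 3 genes could be tested of 14448, and 2 were called in tail pNSCs against brain NSCs (18.2%), 2 in DRG pNSCs (9.53%) and 3 in DRG NCSCs (36.9%). A call in each is *Nkx2-1*, which passed the filter through brain NSCs alone, and the count in tail pNSCs fell to 1 when any of their 3 samples was left out. Tail pNSCs against DRG NCSCs gave 1 (37.9%), DRG pNSCs against DRG NCSCs 2 (38.3%) and tail against DRG pNSCs 1 (18.0%). These comparisons share their brain NSCs, lung cells or NCSCs and are not independent of each other.

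*Pitx1*, *Cdx1*, *Cdx2* and *Cdx4* were at the edge of detection. *Pitx1*, which sets hind limb identity, had 0, 3 and 4 counts in Wnt1Cre-mTmG brain NSCs and at most 1 in every other library, tail cells and tail pNSCs included, although tail cells held *Tbx4*. *Cdx2* had no count in any library. *Cdx4* had 1 count in each Wnt1Cre-mTmG brain NSC library and in 2 of 3 DRG NCSC libraries, and *Cdx1* had 2 counts in 1 lung cell library. No *Cdx* count was seen in any tail cell or pNSC library. Transcripts of the *Cdx* genes were thus not detectable at this depth in tail cells or pNSCs.

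Other genes of the same pathways were taken from fixed lists. Of 13 other T-box factors, 9 were tested in the unnamed line, and in lung pNSCs against brain NSCs *Tbx3* (36 and 66 counts against 0) and *Tbx2* (8.83 ± 0.412 against 4.17 ± 0.868 cpm, log2 1.05) were higher and *T* lower (0.318 against 1.66 cpm, log2 -2.44). The median log2 change of the list was 0.31, where that of all genes was 0. In tail pNSCs none was higher, and *Eomes* (log2 -3.25) and *Tbx2* (0.705 ± 0.0619 cpm, log2 -2.58) were lower. Against lung cells 7 of 9 were lower in lung pNSCs, and in tail against lung cells 6 were lower and 2 higher, with *T*, the notochord and tail bud factor, at 23.3 ± 0.716 cpm in tail cells.

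The 18 other lung bud and foregut factors were mostly lower in pNSCs than in the tissues. In lung pNSCs 16 of 17 tested were lower than in lung cells (median log2 -6.45, all genes -0.15), and 1, *Barx1*, was higher. Against brain NSCs 2 were higher (*Barx1*, 5.15 ± 0.947 against 1.73 ± 0.392 cpm, and *Foxa2*, with 2 and 10 counts) and 1 lower (*Shh*), with a median of 0. In tail pNSCs *Nkx6-1*, which acts in pancreas and foregut and also in ventral spinal cord progenitors, stood at 73.5 ± 1.61 cpm where brain NSCs had none, and in Wnt1Cre-mTmG tail pNSCs at 91.2 ± 1.17 cpm against 0.569 ± 0.127 cpm (log2 7.30 ± 0.162, adjusted p = 1.94e-16). DRG pNSCs had 8.91 ± 0.531 cpm. It had no count in the lung pNSCs of either line.

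Of 22 limb and body wall mesenchyme factors, 19 were tested in the unnamed line. In lung pNSCs 7 were higher than in brain NSCs and none lower (median log2 1.26), among them *Shox2* (4.92 ± 1.58 against 0.0484 cpm) and *Msx2* (1.05 ± 0.0179 against 0.0242 cpm). In tail pNSCs 5 were higher, among them *Prrx1* (28.4 ± 0.948 against 6.73 ± 1.18 cpm, log2 2.06), and 2 lower, *Prrx2* and *En1*, with a median of 0.09. Against tail cells 18 of 19 were lower in tail pNSCs (median log2 -5.97). In Sox2-GFP lung pNSCs 5 of 14 tested were higher, led by *Alx4*, *Osr2* and *En1*, and 4 lower, led by *Shox2* (0.0158 against 4.51 ± 0.841 cpm), which had been among the genes higher in the other lung pNSCs. In Wnt1Cre-mTmG tail pNSCs 7 of 13 were higher, led by *Isl1*, *Meox2* and *Osr2*, and 2 lower. In that group the fibroblast list was also high, at 527 to 540 cpm in sum with 9 of 10 markers detected, against 49.9 to 52.2 cpm in its brain NSCs, and its part in these genes was not tested.

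The same pair of caudal factors was higher in the tail pNSCs of both lines. Of 18 tail bud and caudal factors, 9 were tested, and in tail pNSCs *Sp8* (1.86 ± 0.0275 against 0.0242 cpm) and *Nkd2* (2.76 ± 0.484 against 0.695 ± 0.435 cpm) were higher than in brain NSCs and none lower. The median log2 change of the 9 was 0, and 4.31% of all genes were higher in that comparison. *Sp8* and *Nkd2* were also the 2 higher of 5 tested in Wnt1Cre-mTmG tail pNSCs, *Sp8* at 47.6 ± 0.960 cpm against 0.451 ± 0.0298 cpm (log2 6.69 ± 0.139, adjusted p = 6.97e-14). *Sp8* acts in the limb ridge and tail bud and also in forebrain progenitors, and *Nkd2* is an antagonist of Wnt signals. *Gsx1*, a ParaHox gene of the ventral forebrain and the only one of the 3 other ParaHox factors to be tested, was lower than in brain NSCs in all 5 pNSC groups, from 3.53 ± 0.682 cpm to 0.548 ± 0.175 cpm in lung pNSCs and to 0 in tail pNSCs.

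The genes most like each member were named by Pearson correlation of the group means (log2 of cpm with 1 added) over 11 groups and 16579 genes, as a description in which the points share libraries. *Tbx15* was most like *Thap4* (r = 0.882), *Garem1* and *Cplane1*, and *Tbx18* most like *Mri1* (r = 0.868), *Telo2* and *Polrmt*. *Foxf1* was most like *Calhm6* (r = 0.991), *Tmc8* and *Zan*. For *Tbx4* (*Gpr141b*, *Cxcr2*, 4833403J16Rik), *Tbx5* (*Sftpd*, *Ear1*, *Scgb1a1*) and *Nkx2-1* (*Ifi214*, *Cfap206*, *Spag6l*) r lay between 0.997 and 1.00, and the highest group mean of each of these genes was in lung cells. *Tbx15* and *Tbx18* had no gene above 0.9.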

How the data were processed

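PolyA-selected RNA of 28 samples in 11 groups was sequenced single-end. Per the study's methods the authors aligned reads to GRCm38 with HISAT2 and counted them with htseq-count, and the deposited table holds raw counts of 28244 genes. Annotation release and strand setting are not given in the sources used here. Each experiment was fitted on its own with edgeR 4.0.16 (R 4.3.3), with filterByExpr at a minimum count of 10, TMM scaling, quasi-likelihood tests and Benjamini-Hochberg adjustment. The filter left 16948 genes in the experiment without a named line, 14448 in the Wnt1Cre-mTmG and 16234 in the Sox2-GFP experiment. Interactions between lines used 1 fit of all samples. A fold against a group without counts is a bound computed at 3 counts per library, and a fold on 1 to 3 counts carries a Clopper-Pearson interval, which covers counting error only. In each fit on simulated counts 200 of 200 changed genes were recovered, with 1 to 2 unchanged genes called. The changed genes were drawn from well-counted genes and given large changes. The simulation therefore does not cover members near the smallest detectable amount or changes near the threshold.

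DESeq2 1.42.0, upper-quartile scaling, no filter, fits of the compared groups alone and of all samples, and leaving out each replicate were alternatives. Same-numbered samples did not deviate together (correlations -0.0197 to 0.0981), so replicate numbers were not used to pair samples. The members and lists were chosen with earlier results of these data known. All members were described, and of each other list the genes called with the largest changes and no overlap between groups, up to 3 in each direction, were named. *Mthfsd*, and list genes given for comparison in further groups, were chosen after their values were seen. A gene that this rule names is not reported here. P-values measure the spread between the samples of a group. The common coefficient of variation beyond counting error was small, at 0.0155 to 0.0480 in the fits. Whether that spread holds differences between animals or lines is not given, so no p-value is read as holding for other lines of a tissue.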

Additional observations from a re-analysis of the deposited data

Results flagged for a closer look

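The change from brain NSCs differed between lines in 4 tests of the difference itself. For *Tbx18* in tail pNSCs it was larger in the line without a name than in the Wnt1Cre-mTmG line by 1.54 on the log2 scale (SE 0.405, adjusted p = 0.00162). In lung pNSCs of that line, against the Sox2-GFP line, the change was larger by 7.80 for *Foxf1* (SE 2.85, adjusted p = 0.0241), by 6.17 for *Tbx15* (SE 0.333, adjusted p = 3.33e-18) and by 1.42 for *Tbx18* (SE 0.352, adjusted p = 0.000942). The value for *Foxf1* was fitted against brain NSCs with at most 1 count, and without the second Sox2-GFP brain NSC sample its call was lost (6.02, adjusted p = 1.00). Line and experiment cannot be told apart in any of them.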

How the results depend on the processing

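No result changed its direction under any alternative. The number of members called differed from the values reported in few settings. With the 2 compared groups alone, 1 was called in DRG pNSCs against brain NSCs and 2 in Sox2-GFP lung pNSCs against brain NSCs. Without a filter, 5 were called in DRG NCSCs against brain NSCs and 2 in Wnt1Cre-mTmG tail pNSCs against DRG NCSCs, as in the fit of all 28 samples for the latter. For the difference between tail lines DESeq2 and upper-quartile scaling each called 2, the latter with *Tbx15* at 1.53 (adjusted p = 0.0496), which also passed without the second tail pNSC sample, Wnt1Cre-mTmG tail pNSC sample 2 or 3, or the third Wnt1Cre-mTmG brain NSC sample. Leaving out 1 replicate gave 1 to 2 for that difference, 2 to 3 for the lung lines, 2 to 3 for DRG NCSCs and 1 to 3 for Wnt1Cre-mTmG tail pNSCs against brain NSCs (1 without any of the tail pNSC samples in turn), 3 to 4 for Sox2-GFP lung pNSCs against brain NSCs and 1 to 2 for tail against lung pNSCs. *Tbx18* in Wnt1Cre-mTmG tail pNSCs was called at 1.15 (adjusted p = 0.0115) without the third brain NSC sample. Of 586 log2 fold changes recomputed, 577 kept their side of the threshold, 7 gained and 2 lost the call. Levels near 3 counts are limited by depth.

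With the replicate block, the members called were as many as without it in every comparison, 3 in lung and 2 in tail pNSCs against brain NSCs, and 1420 and 1788 genes were called there. The numbers are not shown to pair the samples.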
